A study of Mus musculus with 31 samples.

Results

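MPP3, a multipotent progenitor of mouse bone marrow, was compared with the long-term haematopoietic stem cell (LT-HSC). The members were taken by their sample titles, which gave 3 MPP3 arrays and 4 LT-HSC arrays, 7 of the 31 arrays in the series. All samples came from wild-type C57BL/6 mice without any allele or agent, and the labels call the replicates biological but give no age, sex or pooling of animals. Both populations were lineage-negative cells that carried cKit and Sca1 and lacked Flk2. The LT-HSC gate then took cells with CD150 and without CD48, and the MPP3 gate took cells with CD48 and without CD150. Each sample was 20000 cells sorted through the gate again for purity, whose amplified RNA was hybridised to a mouse whole-transcript gene array. The MPP2 arrays (n = 3; CD48+ CD150+) and MPP4 arrays (n = 5; Flk2+) served to show where MPP3 differs from its neighbours, and the arrays of ST-HSC, CMP, GMP, PreGr and Gr gave further levels. Per the labels, a related study used the LT-HSC and GMP arrays as its controls.

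Blood formation starts from long-term stem cells, which are mostly quiescent, self-renew and can rebuild the blood of a transplanted host for life. Multipotent progenitors divide more often, self-renew little and differ in the lineages they favour. MPP3 is known as the myeloid-biased progenitor that feeds granulocyte and monocyte output, MPP2 as biased to megakaryocytes and red cells, and MPP4 as lymphoid-primed.

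By deposited values identical between arrays, the 31 arrays formed 5 sets, with arrays that share at least 2 such values joined. LT-HSC 4 and MPP3 3 shared 4, and arrays of different sets shared at most 1. The sets also differ in overall level, except that sets 2 and 4 overlap. LT-HSC 1, 2 and 3 formed set 1, with array medians of 6.19 to 6.22 (log2). LT-HSC 4 and MPP3 3 lay in set 2, from a median of 6.86 upward, together with MPP4 4 and 5 and GMP 4. MPP3 1 and 2 lay in set 3 (7.78 to 7.83) with all ST-HSC and MPP2 arrays. The labels do not name the sets. All arrays were quantile-normalized to a common scale, and every level below is a log2 value on that scale. Each gene then had 2 estimates of its change, both from limma: the all-array change, from all 7 arrays with no term for the set, and the within-set change, from a fit with the set as a block, which here equals MPP3 3 minus LT-HSC 4. Rises and falls are named here where both fits gave a Benjamini-Hochberg adjusted p under 0.05 in the same direction. Both fits take their spread from the arrays of all populations, since MPP3 3 and LT-HSC 4 alone have none, and the p-values measure that spread between samples. The number of arrays limits the precision. In bulk samples fewer cells of a type and less RNA per cell cannot be told apart.

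The genes of the sort markers served as a check of the labels and not as findings, since the gates chose the cells by them. Slamf1, which encodes CD150, stood at 9.05, 9.17, 8.82 and 7.83 in LT-HSC 1 to 4 and at 5.74, 5.35 and 5.70 in MPP3 1 to 3. Cd48 stood at 6.58, 6.66, 6.37 and 7.58 against 10.27, 10.54 and 10.50. Both followed the gates on every array, with LT-HSC 4 the closest of the stem cell arrays to MPP3. Kit, the gene of cKit, was at 11.25 to 11.60 in LT-HSC and 11.10 to 11.18 in MPP3. Flt3, the gene of Flk2, which both gates exclude, was at 7.89 to 8.50 in LT-HSC and 9.56 to 9.81 in MPP3, against a mean of 11.27 ± 0.54 (SD, n = 5) in MPP4. The Sca1 gene was not analysed here.

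In MPP3 against LT-HSC, 803 of 19938 genes passed in both fits, which is 4.03 percent. Of these, 453 rose (2.27 percent of all genes) and 350 fell (1.76 percent). The largest rises were those of Jchain, the joining chain of IgA and IgM, and Mpo, the myeloperoxidase of primary granules. The largest fall in both fits was that of Abcg3, a member of the ABC transporter family, and within the set it was followed by that of Mmrn1, a secreted protein of platelets and endothelium.

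How the called genes divided between rises and falls depended on the scale, so totals in one direction are not read as a result. With each array centred on its median, 199 genes were higher and 645 lower. On the deposited values 711 were higher and 53 lower, and with only MPP3 and LT-HSC arrays in the fit 167 were higher and 460 lower. Of the 803 genes, 426 were also called with centred arrays, 297 on the deposited values and 343 with only these arrays. Of the 88 called genes named below, 20 lost their call with centred arrays: Adgrg3, Aurkb, Bst2, Cd34, Cd37, Cd48, Cdk6, Cebpe, Col3a1, Cst7, E2f7, Emcn, Flt3, Icam4, Il3ra, Lgals1, Procr, Slc4a1, St6gal1 and Thy1. On the deposited values 29 did: the same ones other than Cd48, Flt3 and St6gal1, and also Abcg2, Bex1, Car2, Cd55, Gstm5, Ifih1, Itga6, Ltb, P2rx1, Pfkm, Prdm16 and Sult1a1. The median change over all genes was -0.01 in the all-array fit and 0.10 within the set. The fit without sets mixes set with population, and on data simulated with the sets it called many genes that were unchanged, so that its calls and p-values are not read alone. It called 2544 genes higher (12.8 percent) and 2944 lower (14.8 percent), and the fit with sets alone 864 (4.33 percent) and 463 (2.32 percent). The arrays of the groups did not overlap for 328 of the rises (1.65 percent of all genes) and 316 of the falls (1.58 percent). The comparison of MPP3 1 and 2 with LT-HSC 1, 2 and 3 shares no array with the within-set change. Over all genes, 11854 of 19938 had the same sign in both, with a correlation across genes of 0.43, where genes are not independent replicates. The median change of the 453 called rises was 0.71 within the set and 0.44 on the other arrays, and that of the 350 falls was -1.13 and -0.83. The all-array fit that takes part in the call contains those arrays.

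**Figure D1:**
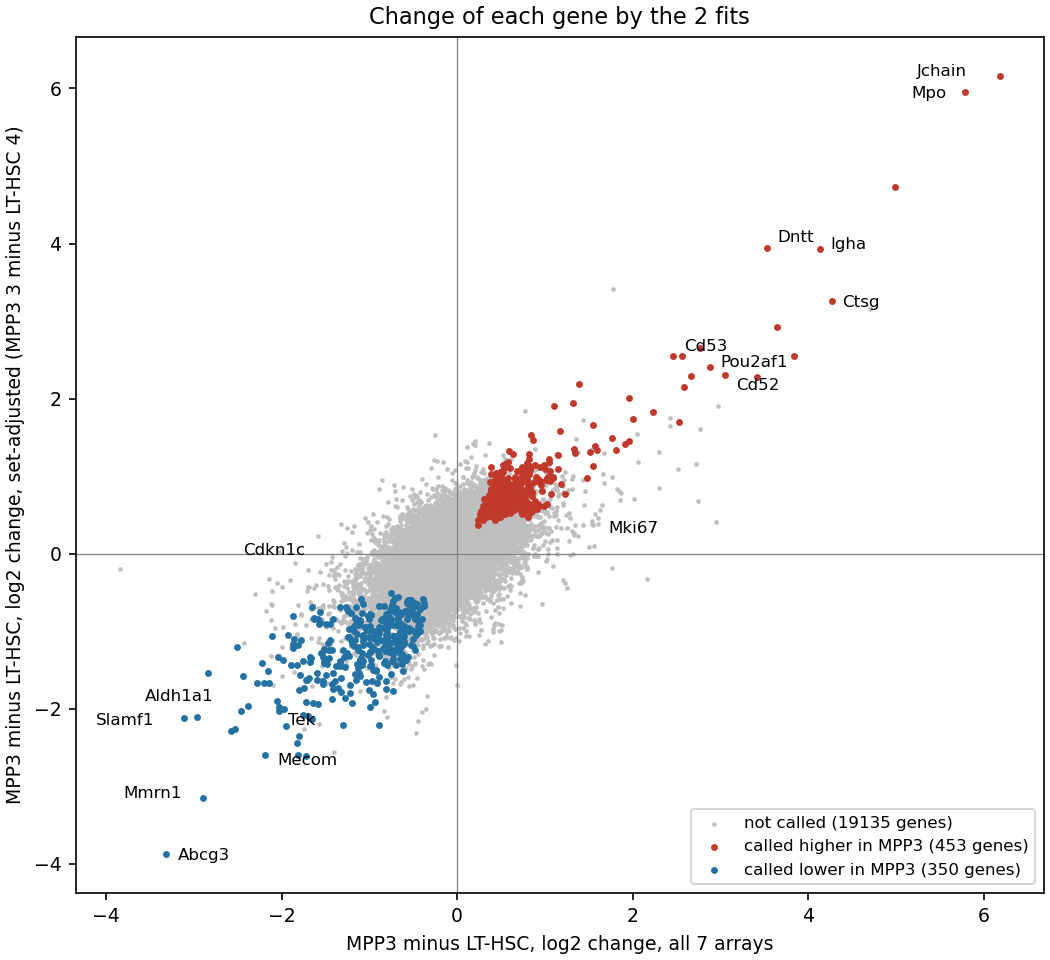
Log2 change of each of the 19938 genes, MPP3 minus LT-HSC, in the all-array fit (horizontal axis) and within set 2, as MPP3 3 minus LT-HSC 4 (vertical axis). Red points are the 453 called rises and blue points the 350 called falls; Jchain and Mpo lie farthest up in both fits, Abcg3 farthest down within the set, and Mki67 and Cdkn1c lie far from zero on the horizontal axis and near it on the vertical one.

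The start regions of 3 genes that rose (Mpo, Ctsg, Dntt), of Jchain and of 2 genes that fell (Tek, Abcg3) are shown because these genes mark the granule, lymphoid, immunoglobulin and stem cell programmes described below. The windows run from 250 bases before to 50 after the annotated start site, 5′ to 3′ on the gene's own strand, from RefSeq on GRCm38.p6. Mpo lies at chr11:87793534-87793833 (plus strand), Ctsg at chr14:56102525-56102824 (minus), Dntt at chr19:41029025-41029324 (plus), Jchain at chr5:88527848-88528147 (minus), Tek at chr4:94739039-94739338 (plus) and Abcg3 at chr5:104982668-104982967 (minus). Capitals mark matches, on either strand, to 6 motifs. GAGGAA is a form of the element read by PU.1 and other ETS factors. TTGCNNAA is a form of the element of the C/EBP factors. TGTGGT is the core element of the Runx factors. ATGCAAAT is the octamer element of immunoglobulin promoters. AGATAA is an element of the GATA factors. CACCTG is an E-box, read by basic helix-loop-helix factors. Matches of different motifs were counted separately where they overlap.
Mpo: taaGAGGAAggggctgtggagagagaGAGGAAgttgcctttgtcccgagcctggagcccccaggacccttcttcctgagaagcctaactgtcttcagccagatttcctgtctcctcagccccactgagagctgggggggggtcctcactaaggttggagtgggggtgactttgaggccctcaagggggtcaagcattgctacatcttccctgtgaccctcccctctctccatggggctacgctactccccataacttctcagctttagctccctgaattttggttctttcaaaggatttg
Ctsg: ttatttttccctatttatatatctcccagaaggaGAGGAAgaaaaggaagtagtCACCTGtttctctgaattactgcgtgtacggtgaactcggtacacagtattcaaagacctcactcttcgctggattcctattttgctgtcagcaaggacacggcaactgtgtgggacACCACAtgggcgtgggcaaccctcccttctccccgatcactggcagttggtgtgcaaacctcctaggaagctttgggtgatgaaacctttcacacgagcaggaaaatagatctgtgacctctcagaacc
Dntt: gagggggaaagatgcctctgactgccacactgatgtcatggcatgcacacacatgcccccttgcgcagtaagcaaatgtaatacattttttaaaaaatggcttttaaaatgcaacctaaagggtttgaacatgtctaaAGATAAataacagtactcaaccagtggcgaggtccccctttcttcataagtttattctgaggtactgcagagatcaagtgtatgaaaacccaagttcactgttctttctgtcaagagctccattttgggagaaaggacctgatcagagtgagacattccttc
Jchain: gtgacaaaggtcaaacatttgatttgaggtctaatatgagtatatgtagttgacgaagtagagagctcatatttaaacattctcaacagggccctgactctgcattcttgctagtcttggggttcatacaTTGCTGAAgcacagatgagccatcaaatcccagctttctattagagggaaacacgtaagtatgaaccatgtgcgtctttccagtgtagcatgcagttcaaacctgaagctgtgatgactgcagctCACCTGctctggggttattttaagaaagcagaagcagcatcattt
Tek: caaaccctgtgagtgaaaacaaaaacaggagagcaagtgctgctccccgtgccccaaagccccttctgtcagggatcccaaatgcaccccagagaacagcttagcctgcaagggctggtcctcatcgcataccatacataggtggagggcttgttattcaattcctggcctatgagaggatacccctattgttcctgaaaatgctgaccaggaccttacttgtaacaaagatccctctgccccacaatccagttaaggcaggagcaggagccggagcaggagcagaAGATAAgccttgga
Abcg3: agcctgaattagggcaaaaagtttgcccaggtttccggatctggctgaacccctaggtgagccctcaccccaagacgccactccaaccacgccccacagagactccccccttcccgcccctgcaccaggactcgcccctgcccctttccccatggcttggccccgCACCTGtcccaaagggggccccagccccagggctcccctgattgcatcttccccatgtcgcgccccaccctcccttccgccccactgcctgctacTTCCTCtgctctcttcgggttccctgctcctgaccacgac
The Mpo window held GAGGAA with its first base at positions -247 and -224 from the start site, and the Ctsg window held it at -216, with CACCTG at -196 and the reverse complement of TGTGGT at -79. Jchain held a TTGCNNAA match at -120, and both Dntt (-112) and Tek (37) held AGATAA. Among all 32851 promoter windows of this length, 28.3 percent held GAGGAA, 10.8 percent TTGCNNAA, 16.8 percent TGTGGT, 1.74 percent ATGCAAAT, 11.2 percent AGATAA and 20.2 percent CACCTG. Of the genes tested, 15614 had a window, among them 344 that rose and 281 that fell. GAGGAA was in 31.4 percent of the windows of risen genes and 32 percent of those of fallen genes, beside 27 percent of the 15614. TGTGGT was in 18 and 12.5 percent, beside 14.3 percent of the 15614. The octamer ATGCAAAT was in 10 of the 344 and in 1 of the 281, beside 1.72 percent of the 15614. These are matches of letters and were not tested as sites.

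Of the 23 stem cell transcription factors measured, 3 fell and none rose, with a median all-array change of -0.49 and within-set change of -0.32, against -0.01 and 0.10 over all genes. Mecom encodes Evi1, a zinc finger factor needed for stem cell maintenance. It stood at 10.71, 10.59, 10.64 and 10.41 in LT-HSC 1 to 4 and at 8.67, 8.71 and 7.82 in MPP3 1 to 3, so that every MPP3 array lay below every stem cell array. Its all-array change was -2.19 ± 0.19 (SE; adjusted p = 6.9e-09) and its within-set change -2.59 ± 0.26 (adjusted p = 7.3e-06). Mllt3, a cofactor of transcription elongation, fell by 1.21 and by 1.12 in these fits, and Prdm16, a chromatin regulator of stem cells, fell by 1.09 and by 0.77. The other well-known factors did not pass in both fits: Hlf had changes of -0.66 and -0.27 (adjusted p = 0.42 within the set), Meis1 of -0.47 and -0.69, and Hoxb5 of -1.98 and -0.94 (adjusted p = 0.060). None of the 19 Hox genes measured passed, although 9 were lower in the all-array fit alone, beside 14.8 percent of all genes.

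Of the 24 stem cell surface and adhesion genes measured, 8 fell, the gate gene Slamf1 among them, and 1 rose, with median changes of -0.95 and -0.47. Tek encodes Tie2, the angiopoietin receptor that keeps stem cells quiescent. It stood at 9.34, 9.47, 9.35 and 8.73 in LT-HSC and 7.55, 7.27 and 6.76 in MPP3, without overlap, a fall of 2.02 over all arrays and of 1.97 within the set (adjusted p = 4.5e-08 and 7.8e-06). Mmrn1, multimerin, stood at 9.83, 9.58, 9.78 and 9.48 against 6.83, 7.14 and 6.33, with changes of -2.90 ± 0.30 and -3.15 ± 0.49. MPP3 3, from the set of LT-HSC 4, was the lowest array for both genes. Plxnc1, a semaphorin receptor, fell by 1.64 and by 1.92. Procr, the endothelial protein C receptor used to sort stem cells, fell by 1.58 and by 0.84, and Itga6, an integrin of stem cells, fell by 0.95 and by 1.00. Emcn (endomucin) fell by 1.68 and by 1.34, and Sult1a1, a sulfotransferase, by 1.33 and by 0.68. These last 2 calls were close to the threshold: leaving out any of 15 single arrays ended that of Emcn (adjusted p up to 0.058) and any of 19 that of Sult1a1 (up to 0.059), both highest without GMP 2. Cd34, which long-term stem cells carry at low level, stood at 10.35, 10.58, 10.59 and 10.34 in LT-HSC and 11.44, 11.52 and 11.57 in MPP3, a rise of 1.04 and 1.23.

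The retinoid, aldehyde and transporter genes listed protect stem cells from toxic compounds or respond to retinoic acid. Of 15 measured, 5 fell and none rose, beside 1.76 and 2.27 percent of all genes. Abcg3 stood at 9.66, 9.63, 9.60 and 9.80 in LT-HSC and 6.66, 6.47 and 5.93 in MPP3, the widest gap of any fallen gene named here. Its changes were -3.32 ± 0.31 and -3.87 ± 0.46 (adjusted p = 3.9e-08 and 4.8e-05). Abcg2, the pump behind the dye-excluding side population, fell by 1.16 and by 1.55. Aldh1a1, an aldehyde dehydrogenase that makes retinoic acid, stood at 10.52, 10.45, 10.49 and 9.37 in LT-HSC and at 8.05, 7.83 and 7.34 in MPP3, and fell, with changes of -2.47 and -2.03. LT-HSC 4 was more than a log2 unit below the other stem cell arrays for this gene and still above all MPP3 arrays. Rarb, a retinoic acid receptor, had the same order, at 8.64, 8.84, 8.70 and 7.20 against 6.66, 6.71 and 6.09, and fell by 1.86 and by 1.11. Gstm5, a glutathione transferase, fell by 1.53 and by 1.68, but MPP3 2 at 9.58 overlapped with LT-HSC 4 at 9.40.

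**Figure D2:**
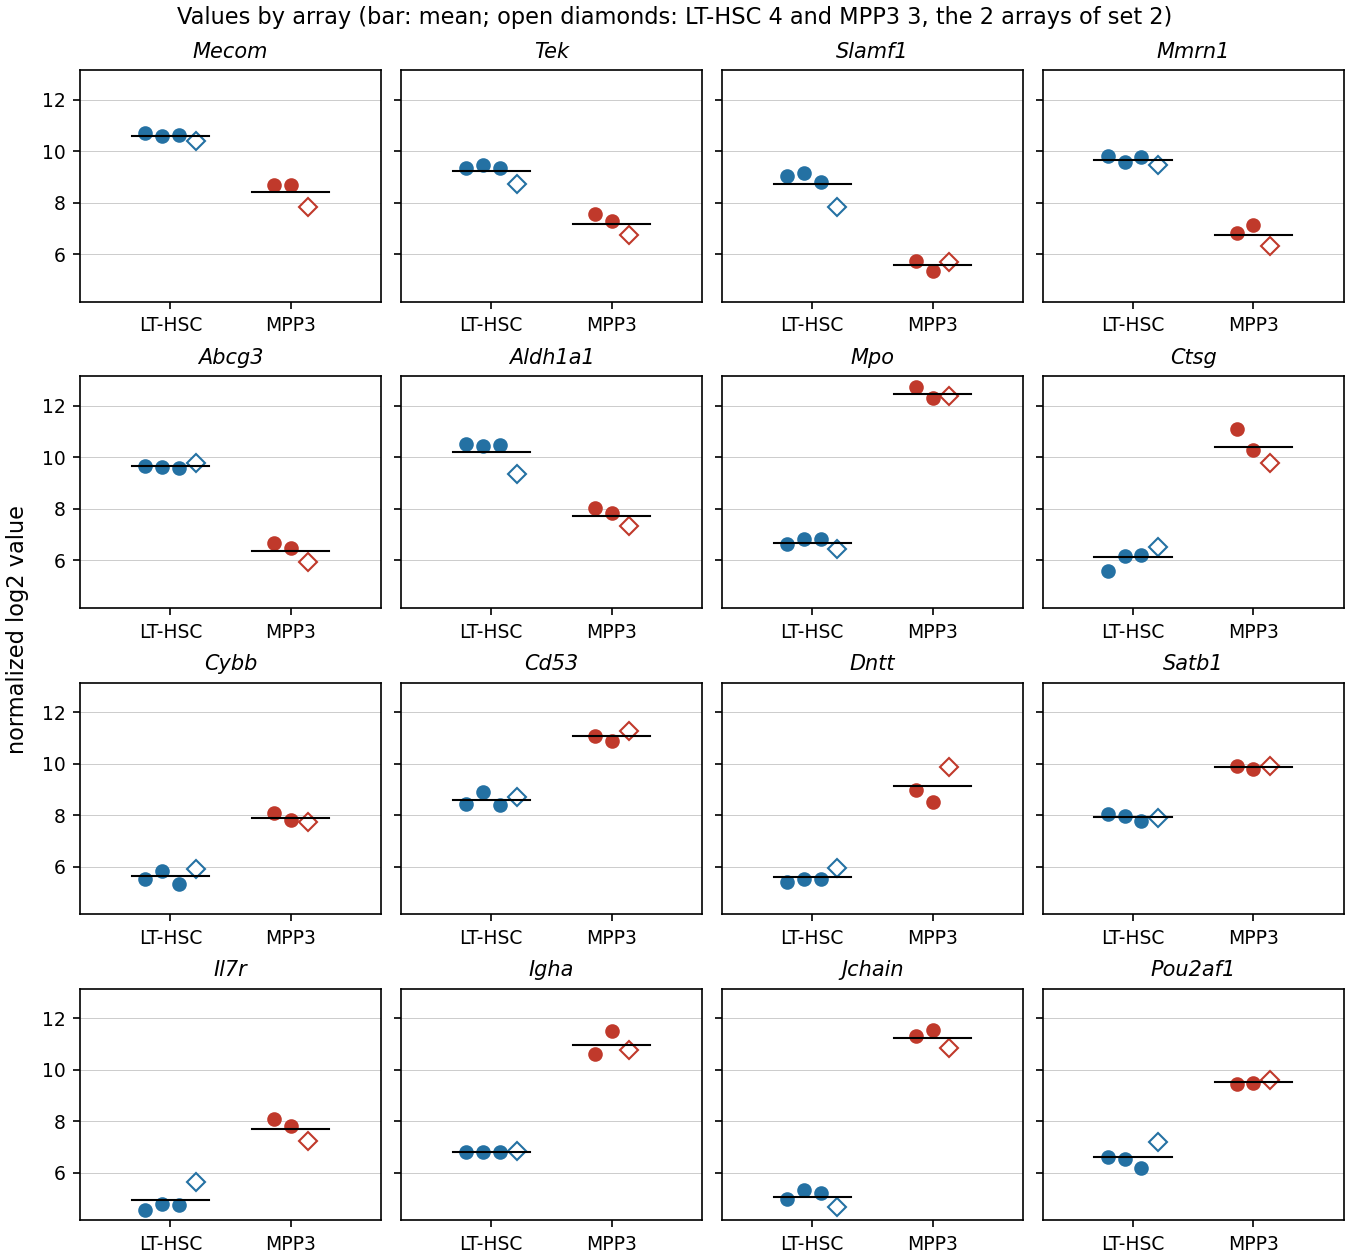
Normalized log2 value of 16 genes on each LT-HSC array (blue) and MPP3 array (red), with bars at the group means and open diamonds for LT-HSC 4 and MPP3 3, the arrays of set 2. The arrays do not overlap in any panel; LT-HSC 4 lies toward MPP3 for Aldh1a1, Slamf1 and Il7r, of which Il7r did not pass in both fits.

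Of the 20 genes of growth restriction and quiescence, 1 fell, beside 1.76 percent of all genes. Grb10, an imprinted adaptor that dampens growth factor receptors, stood at 9.23, 9.39, 9.42 and 8.51 in LT-HSC against 7.20, 7.26 and 7.34 in MPP3 and fell by 1.87 and by 1.17. Cdkn1c, the imprinted cell cycle inhibitor p57, stood at 8.96, 8.99, 9.26 and 7.27 against 7.29, 7.09 and 7.17. Its level on LT-HSC 4 was that of MPP3, so that its change was -1.44 over all arrays (adjusted p = 0.00084) but -0.10 ± 0.20 within the set (adjusted p = 0.80). Ndn, another imprinted growth suppressor, had changes of -1.90 and -1.20 with an adjusted p of 0.097 within the set.

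The list of 21 primary granule genes holds enzymes of the azurophil granules of neutrophil and monocyte precursors. It also holds other myeloid genes, among them Plac8, Ms4a3 and Clec12a. Of the 21 genes, 5 rose and none fell, beside 2.27 and 1.76 percent of all genes. The median changes of the list were 0.99 over all arrays and 0.63 within the set. Mpo stood at 6.65, 6.82, 6.83 and 6.44 in LT-HSC and 12.74, 12.29 and 12.40 in MPP3. The gap between the groups was far wider than the spread within either, and the changes were 5.79 ± 0.29 and 5.95 ± 0.50 (adjusted p = 2.2e-13 and 3.5e-07). Ctsg, cathepsin G, stood at 5.61, 6.16, 6.20 and 6.52 against 11.11, 10.30 and 9.78 and rose by 4.27 and 3.26. Plac8, a small cysteine-rich protein of myeloid cells, stood at 8.94, 9.72, 9.50 and 10.20 against 12.19, 12.25 and 11.90, a rise of 2.52 and 1.70. Cst7, a cystatin that restrains granule proteases, rose by 2.66 and 2.29, and Hp, haptoglobin, by 1.58 and 1.38. The call of Cst7 was lost without GMP 2 (adjusted p = 0.051). Elane, neutrophil elastase, stood at 7.30, 7.25, 7.23 and 6.93 against 9.62, 8.71 and 8.24 without overlap, but its within-set change of 1.30 ± 0.53 had an adjusted p of 0.13. For 15 of the 21 genes all MPP3 arrays lay above all LT-HSC arrays, where this held for 11.4 percent of all genes. Lyz2, the lysozyme of phagocytes, had the opposite sign, with changes of -1.07 and -0.67 (adjusted p = 0.13 within the set). The MPP3 arrays of Lyz2, at 9.01, 8.97 and 8.70, all lay below its LT-HSC arrays, at 9.37 to 10.25. Its relative Lyz1 stood at 7.95, 8.10, 8.15 and 8.71 in LT-HSC and 8.60, 8.55 and 7.58 in MPP3. The sign of Lyz1 turned between the fits, with changes of 0.02 and -1.13.

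Of 17 transcription factors of granulocytes and monocytes measured, Cebpe alone passed, a factor of late granule genes, with a marginal call: it stood at 7.46, 7.53, 7.63 and 7.46 in LT-HSC and 8.13, 7.94 and 8.12 in MPP3, and leaving out any of 7 arrays ended the call (adjusted p up to 0.053, without GMP 3). Cebpa, the master factor of granulocyte fate, had changes of 0.83 and 0.73 (adjusted p = 0.13 within the set), and Spi1, which encodes PU.1, of 0.24 and 0.42 (adjusted p = 0.34 and 0.36). Among 17 myeloid cytokine receptors 2 rose, where 2.27 percent of all genes did. Il3ra, the alpha chain of the interleukin-3 receptor, had changes of 0.56 and 0.66 with overlapping arrays, and Flt3 of 1.51 and 1.31. Csf3r, the receptor of G-CSF, was at 7.88 to 8.29 in LT-HSC and at 9.23, 9.26 and 8.42 in MPP3, with an adjusted p of 0.29 within the set.

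Of 21 phagocyte genes 3 rose and none fell, beside 2.27 and 1.76 percent of all genes. Cybb encodes the catalytic subunit of the phagocyte oxidase and stood at 5.52, 5.83, 5.32 and 5.92 in LT-HSC against 8.08, 7.82 and 7.74 in MPP3, changes of 2.23 ± 0.17 and 1.82 ± 0.30 (adjusted p = 6.3e-10 and 0.0011). Tyrobp, the adaptor DAP12 of many activating receptors, stood at 7.79, 8.16, 8.42 and 8.35 against 10.92, 10.87 and 10.51 and rose by 2.58 and 2.15. Cd53, a leukocyte tetraspanin, stood at 8.44, 8.89, 8.38 and 8.70 against 11.06, 10.88 and 11.25 and rose by 2.46 and 2.55. In all these genes the groups were separated by more than the range within either group. The other oxidase subunits did not pass, with changes of 0.40 and 0.48 for Ncf1 and of -0.14 and 0.69 for Cyba, whose sign turned between the fits. Tlr4, the receptor of endotoxin, had an all-array change of -1.36 and was not called (adjusted p = 0.15 within the set).

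The list of lymphoid priming genes had 6 rises and 1 fall among 28 measured genes, with median changes of 0.76 and 0.48. Over all genes 2.27 percent rose and 1.76 percent fell. Dntt, the terminal transferase of early lymphocytes, stood at 5.41, 5.53, 5.50 and 5.94 in LT-HSC and 8.96, 8.53 and 9.88 in MPP3. It rose by 3.53 ± 0.24 and 3.94 ± 0.28 (adjusted p = 2.3e-10 and 1.9e-08), with MPP3 3 the highest array. Satb1, a chromatin organiser of lymphoid progenitors, stood at 8.03, 7.95, 7.77 and 7.90 against 9.92, 9.79 and 9.91 and rose by 1.96 and 2.01. Cd52, a small glycoprotein of lymphocytes and monocytes, stood at 6.93, 7.10, 6.70 and 6.69 against 10.21, 10.52 and 8.99 and rose by 3.06 and 2.30. Blnk, the linker of B cell receptor signals, rose by 1.55 and 1.66. Igll1, a part of the surrogate light chain, had changes of 1.11 and 1.91, its MPP3 arrays at 8.35, 7.27 and 8.93, the middle one barely above the highest LT-HSC array at 7.14. Flt3 was the sixth rise. Ltb, lymphotoxin beta, fell by 1.13 and by 1.48. Il7r, the interleukin-7 receptor chain, stood at 4.57, 4.79, 4.75 and 5.63 against 8.07, 7.80 and 7.24 without overlap, and its within-set change of 1.61 ± 0.50 had an adjusted p of 0.054.

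Igha, the constant region of IgA, stood at 6.82, 6.82, 6.81 and 6.83 in LT-HSC and at 10.61, 11.51 and 10.77 in MPP3, a rise of 4.14 ± 0.33 and 3.93 ± 0.62 (adjusted p = 1.8e-09 and 0.00090). Ighm, the constant region of IgM, stood at 7.46, 7.30, 7.57 and 7.82 against 9.62, 9.61 and 9.27 and rose by 1.96 and 1.45. Jchain stood at 4.97, 5.33, 5.21 and 4.68 against 11.31, 11.53 and 10.85, a rise of 6.18 ± 0.73 and 6.16 ± 1.45 (adjusted p = 1.2e-06 and 0.014). Over 11 immunoglobulin gene segments on the arrays, a group chosen after its values were seen, 4 rose and none fell. Of all genes, 2.27 percent rose and 1.76 percent fell. For 9 of the 11 all MPP3 arrays lay above all LT-HSC arrays, which held for 11.4 percent of all genes. The segments include the kappa variable segment Igkv19-93, at 6.78 to 7.11 in LT-HSC and 11.63, 12.16 and 11.84 in MPP3. Probes of variable segments can also bind related segments, so a value may belong to a neighbour. Ighg3, a constant region of IgG, was high on one array, at 4.32, 9.26 and 4.65 in MPP3 1 to 3.

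Genes of antibody-secreting cells were measured beside them. Of 30 plasma cell and secretory genes 3 rose, beside 2.27 percent of all genes: Jchain, Pou2af1 and Derl3. Pou2af1, the coactivator of octamer-binding factors in B cells, stood at 6.61, 6.55, 6.17 and 7.18 in LT-HSC and 9.46, 9.48 and 9.59 in MPP3 and rose by 2.88 and 2.41. Derl3, which helps clear misfolded secretory proteins, rose by 0.63 and 0.66. Mzb1, a chaperone of antibody assembly, stood at 7.02, 7.32, 7.23 and 7.44 against 8.14, 8.18 and 8.36 (adjusted p = 0.13 within the set), and Slamf7 at 5.35, 5.29, 5.39 and 5.76 against 8.18, 7.98 and 7.08 (adjusted p = 0.092). The markers of B and plasma cells, of which 11 were measured, had a mean level of 6.35 to 6.43 on the LT-HSC arrays. It was at least 7.78 on each MPP3 array, and 3 of the 11 rose. A higher mean on every MPP3 array was also found for markers of T and NK cells, mast cells and basophils, eosinophils, mature neutrophils and erythroid cells. Megakaryocyte and platelet markers had the opposite order, and the other marker lists overlapped. Cd79a, a chain of the B cell receptor, rose by 1.91 and 1.41, from 4.97 to 5.62 in LT-HSC to 7.03, 7.63 and 7.03 in MPP3. Other B and plasma cell markers did not pass. Ms4a1 (CD20) had changes of 0.47 and 0.57, Pax5 of 0.35 and 0.66, Sdc1 (CD138) of 0.54 and 0.11 and Prdm1 of 0.50 and 0.38. For Ms4a1, Sdc1 and Prdm1 every MPP3 array lay above every LT-HSC array, as for 11.4 percent of all genes. The arrays of Pax5 overlapped. B220 was among the targets of the lineage antibodies of the sort, and how completely these removed B and plasma cells was not tested. Whether other cells contributed these transcripts was not tested.

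Of 27 mitosis genes 1 rose, beside 2.27 percent of all genes. For 17 of the 27 all MPP3 arrays lay above all LT-HSC arrays, which held for 11.4 percent of all genes. The rise was that of Aurkb, a kinase of chromosome segregation. Its levels were 8.17, 8.27, 8.18 and 8.20 in LT-HSC and 9.10, 8.98 and 8.99 in MPP3. Mki67, the Ki-67 gene, stood at 8.78, 8.71, 8.74 and 10.48 against 10.88, 10.60 and 10.86. LT-HSC 4 was thus near the MPP3 level, and the change of Mki67 was 1.60 over all arrays but 0.38 ± 0.24 within the set (adjusted p = 0.37). The median of the mitosis genes was 0.74 over all arrays and 0.34 within the set, and -0.07 within the set with arrays centred on their medians. The mean level of the list was 8.61, 8.85, 8.64 and 9.13 in LT-HSC 1 to 4 and 9.68, 9.48 and 9.43 in MPP3. None of 32 DNA replication genes and none of 28 ribosome biogenesis genes passed, with within-set medians of 0.19 and -0.00 that became -0.08 and -0.36 with arrays centred on their medians. In the 20 G1 cyclins and kinases 2 genes rose. Cdk6, the G1 kinase whose level sets how fast stem cells leave quiescence, stood at 10.03, 9.43, 9.62 and 10.41 against 11.71, 11.57 and 11.75 and rose by 1.81 and 1.34. E2f7, a repressor of the E2F family, rose by 0.59 and 0.80.

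Of 25 glycolytic and TCA cycle enzymes 2 fell, beside 1.76 percent of all genes. Ldhb, the heart type subunit of lactate dehydrogenase, stood at 9.52, 9.88, 9.87 and 9.12 in LT-HSC and 8.07, 8.33 and 7.79 in MPP3. It fell by 1.53 and by 1.33 on its brightest probe, and the call was lost with the mean of the gene's probes. Pfkm, the muscle type phosphofructokinase, fell by 0.57 and by 0.62. Among 27 interferon response genes 1 rose and 1 fell, with median changes of -0.29 over all arrays and -0.24 within the set. For 10 of the 27 all MPP3 arrays lay below all LT-HSC arrays, and for 1 all lay above. Over all genes, the first held for 2599 of 19938 and the second for 2265. Ifih1, the RNA sensor MDA5, fell by 0.89 and by 1.30, and Bst2 (tetherin) rose by 0.40 and 0.63, a call lost on leaving out either of 2 arrays (adjusted p up to 0.060, without LT-HSC 2). No gene of the 14 of the Bcl2 family passed.

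P2rx1, an ATP-gated channel of platelets, fell by 0.99 and by 0.98 and was the single call among 20 megakaryocyte genes. For 11 of the 20 all MPP3 arrays lay below all LT-HSC arrays, and for 1 all lay above. Over all genes, the first held for 2599 of 19938 and the second for 2265. Pf4, a platelet chemokine, stood at 9.55, 9.48, 9.81 and 8.78 in LT-HSC and 8.27, 8.18 and 6.52 in MPP3 (adjusted p = 0.099 within the set), and Vwf, the von Willebrand factor of platelet-biased stem cells, at 8.09 to 9.15 against 7.51, 7.38 and 7.89 (adjusted p = 0.49). Of 19 erythroid genes 3 were called: Car2 and Icam4 fell and Slc4a1 rose. Car2, a carbonic anhydrase, fell by 0.67 and by 0.86. The calls of Icam4 (9 arrays, adjusted p up to 0.053 without GMP 1) and Slc4a1 (4 arrays, up to 0.077 without LT-HSC 1) did not survive leaving out single arrays. Car1, another carbonic anhydrase and an early erythroid marker, stood at 6.35, 8.31, 7.71 and 7.74 against 10.56, 11.28 and 8.90 (adjusted p = 0.40 within the set).

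Among 16 genes of mast cells, basophils and eosinophils, Cma1, a chymase, rose by 0.75 and 0.77. Over all genes 2.27 percent rose and 1.76 percent fell, the shares to set beside every list in this paragraph. Prg2, the eosinophil major basic protein, stood at 5.73, 5.84, 6.00 and 6.63 in LT-HSC and 9.27, 9.26 and 8.54 in MPP3, and Cpa3, the mast cell carboxypeptidase, at 6.72, 6.68, 6.50 and 6.51 against 9.38, 9.55 and 8.16. Neither overlapped and neither passed within the set (adjusted p = 0.12 and 0.19). Gata2, a factor of stem cells and mast cells, stood at 9.36, 8.97, 9.20 and 8.80 against 8.61, 8.70 and 8.88, with changes of -0.35 and 0.08, neither of which passed. In the T and NK cell list of 17 genes 2 rose: Thy1, a T cell surface protein that stem cells carry at low level, from 7.70 to 8.33 to 9.19, 8.96 and 9.63, and Il2rb, a chain of the receptors for interleukin-2 and interleukin-15, by 0.84 and 0.81. Of 16 B cell genes 2 rose, Cd79a and Pou2af1 given above. Mature neutrophil genes (14) and monocyte and macrophage genes (13) had no call. For 5 of the 14 and 6 of the 13 all MPP3 arrays lay above all LT-HSC arrays. This held for 11.4 percent of all genes, and neither list had a gene with the opposite order. Among the neutrophil markers Ltf, a secondary granule protein, had changes of 0.18 and 0.02. S100a9 had changes of 1.82 and 0.84, and stood at 7.40, 8.17, 8.01 and 8.22 against 10.21, 10.05 and 9.06. Bst2 was the single rise among 17 MHC class II and dendritic cell genes. Of 13 endothelium and stroma genes, Col3a1 rose by 0.46 and 0.54 and Emcn fell. Itga6 was the single call among 22 chemokine receptors and integrins.

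**Figure D3:**
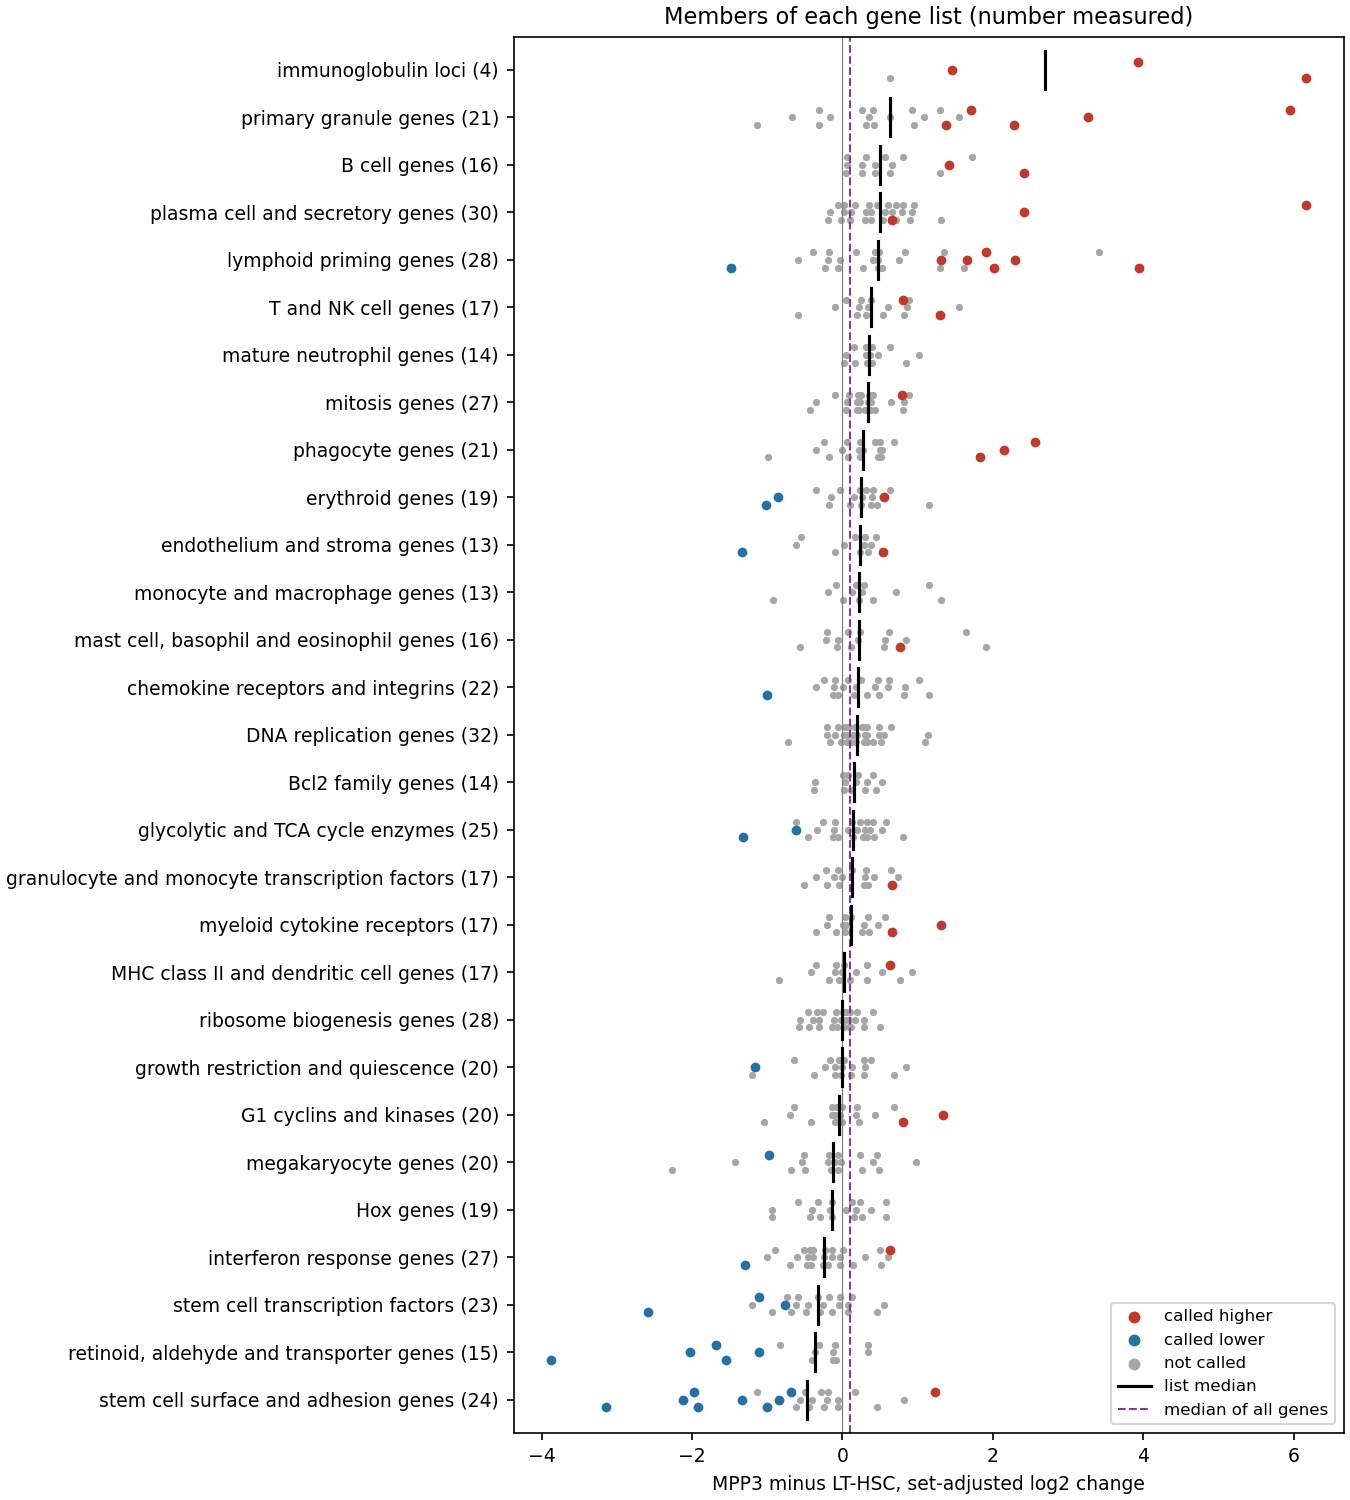
Within-set log2 change (MPP3 3 minus LT-HSC 4) of every measured member of 29 gene lists, ordered by the list median (black bar), with called rises in red and called falls in blue. The immunoglobulin loci (4 genes) have the highest median, 2.69, and the stem cell surface and adhesion genes (24) the lowest, -0.47; the dashed line is the median of all genes, 0.10.

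Outside the lists, the genes named are those with the largest changes in both fits and no overlap between arrays, variable immunoglobulin segments such as Igkv19-93 aside. Atp8b4, a lipid flippase of myeloid cells, stood at 5.46, 5.80, 5.63 and 6.27 in LT-HSC and 10.33, 9.72 and 8.82 in MPP3, a rise of 3.84 and 2.55. Ifi209, of the interferon-inducible p200 family, stood at 3.69, 4.66, 4.17 and 5.34 against 7.34, 6.36 and 7.99 and rose by 2.76 and 2.65. Both spread more between the arrays of a group than Mpo did, and neither overlapped. Tespa1, a T cell signalling protein, rose by 3.41 and 2.28, and Rasgrp3, an activator of Ras in B cells, by 2.00 and 1.73. Ccl9, a chemokine of myeloid cells, rose by 1.39 and 2.18, Clec4e, the receptor Mincle, by 1.17 and 1.59, and Cd244a, a receptor for CD48, by 1.59 and 1.34. Runx3, a Runt factor of lymphoid and myeloid cells, stood at 8.20, 8.12, 8.02 and 8.31 against 9.18, 9.65 and 9.66 and rose by 1.33 and 1.35. Tnfaip8l2, an immune regulator, rose by 1.54 and 1.13, Bin1, a membrane-bending protein, by 1.15 and 1.10, Abcd2, a peroxisomal transporter, by 1.15 and 1.27, St6gal1, a sialyltransferase, by 1.06 and 1.07, and Cd37, a tetraspanin, by 1.04 and 1.18. Adgrg3, an adhesion receptor, rose by 1.76 and 1.49 and Lgals1, galectin-1, by 1.32 and 1.95, with calls lost on leaving out any of 9 and 19 single arrays (adjusted p up to 0.053 and 0.058, both without GMP 2).

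The falls outside the lists included several genes best known from neurons. Nbea, neurobeachin, stood at 8.58, 8.08, 8.03 and 8.26 in LT-HSC and 6.37, 6.02 and 6.23 in MPP3 and fell, with a change of -2.03 in both fits. Dlg2, a scaffold of synapses, stood at 8.95, 8.88, 8.87 and 8.37 against 6.54, 6.22 and 6.41 and fell by 2.38 and by 1.96. Bex4 stood at 8.67, 8.95, 8.85 and 8.56 against 6.11, 6.17 and 6.27 and fell by 2.58 and by 2.29, and its relative Bex1 fell by 1.73 and by 2.60. These 4 genes were separate between the groups on every array. Hacd4, an enzyme of fatty acid elongation, stood at 9.60, 9.59, 9.42 and 9.19 against 6.78, 7.07 and 6.92 and fell by 2.53 and by 2.27. Nap1l3, of the nucleosome assembly protein family, fell by 2.05 and by 1.90. Cd55, a brake on complement, fell by 1.83 and by 2.45, with MPP3 3 at 5.34 far below MPP3 1 and 2 at 6.96 and 7.31. Nudt11, Triqk, Gda (guanine deaminase), Sp140, Plxdc2, Trpc6 (a cation channel), Plag1 (a zinc finger factor) and Iigp1 (an interferon-inducible GTPase) fell, with changes between -2.96 and -1.74 over all arrays and between -2.59 and -1.73 within the set.

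The 3 MPP3 arrays did not carry the same amounts of every programme. The genes in this paragraph were chosen after their values were seen. Ms4a3, a marker of granulocyte-monocyte progenitors, stood at 10.28, 8.90 and 7.40 in MPP3 1, 2 and 3, and Clec12a, a myeloid lectin, at 9.38, 8.99 and 6.32. Neither was called against LT-HSC, where Ms4a3 stood at 6.22 to 6.47 and Clec12a at 5.00 to 5.90. The mean of the primary granule genes was 9.87, 9.47 and 8.95 on the MPP3 arrays, all above the 7.95 to 8.14 of LT-HSC. Mpo was lowest on MPP3 2 instead, and Il3ra was highest on MPP3 3. Some genes of early B cells were low on MPP3 2: Vpreb1, of the surrogate light chain, stood at 11.43, 7.52 and 12.16, Ebf1, the B lineage factor, at 8.16, 5.84 and 7.38, and Rag1, the recombinase, at 7.82, 6.27 and 7.57. On MPP3 2 these were near the LT-HSC ranges of 8.17 to 8.85, 5.54 to 5.82 and 5.99 to 6.28. Others were not: Cd79a, Igha and Jchain were highest on that same array, and Il7r was higher there than on MPP3 3. MPP3 arrays 1 and 2 had Xist at 5.55 and 5.56 and the Y-linked Eif2s3y at 9.16 and 8.97, whereas MPP3 3 had 11.84 and 4.17. LT-HSC 4 stood at 12.17 and 4.21 for these, and LT-HSC 1 at 5.36 and 9.19. LT-HSC 2 (11.39 and 7.75) and LT-HSC 3 (10.24 and 8.97) carried both transcripts. The within-set change compares arrays alike in these transcripts, and the part of sex in the differences between arrays was not tested.

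**Figure D4:**
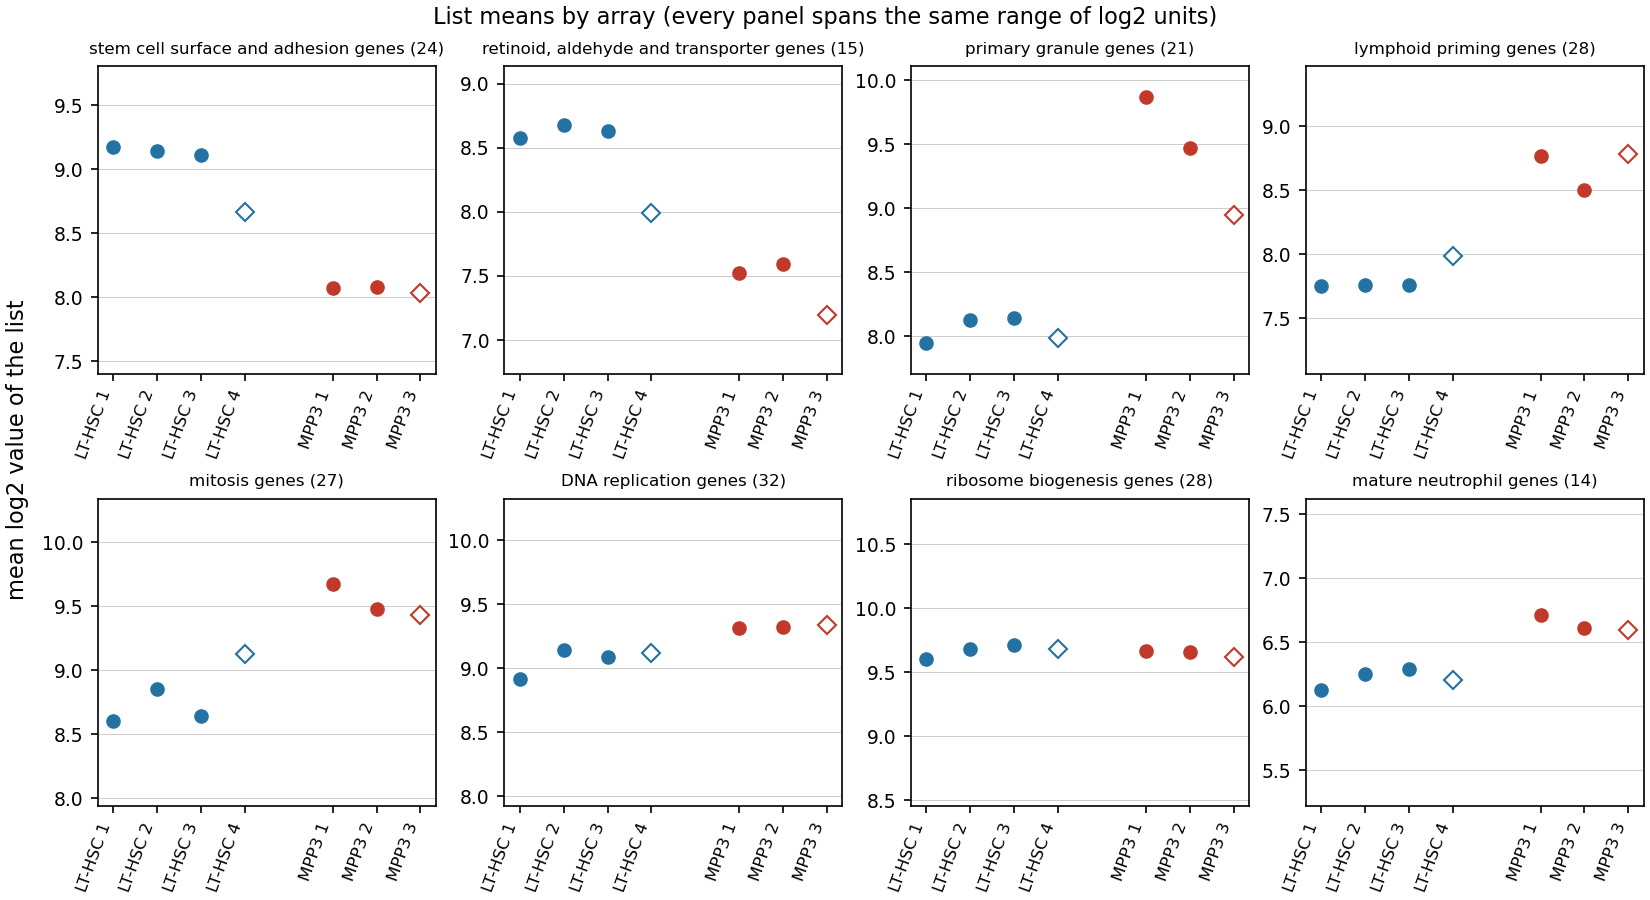
Mean log2 value of 8 gene lists on each LT-HSC array (blue) and MPP3 array (red), with open diamonds for LT-HSC 4 and MPP3 3; every panel spans the same range. Stem cell surface and adhesion genes stand at 8.66 on LT-HSC 4 and at 9.11 to 9.17 on the other stem cell arrays, primary granule genes at 9.87, 9.47 and 8.95 on the MPP3 arrays, and ribosome biogenesis genes at 9.60 to 9.71 on all 7 arrays.

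The comparison with the other multipotent progenitors asked which of these genes set MPP3 apart from them. It shares the MPP3 arrays with the comparison above, so the values are given side by side. Against MPP2, 132 genes passed in both fits (0.662 percent), of which 100 were higher in MPP3 (0.502 percent) and 32 lower (0.160 percent). Here the within-set change is that of MPP3 1 and 2 against the 3 MPP2 arrays. The count rested on few arrays: it was 34 without MPP3 1, 57 without MPP3 2, 83 without MPP2 1 and 326 without MPP2 3. Of the primary granule genes 6 of 21 were higher and none lower, among them Mpo by 2.06 and 2.10 (all-array and within-set) and Ctsg by 2.91 and 3.22. Elane, not called against LT-HSC, was higher than in MPP2 by 1.64 and 1.94. Among lymphoid priming genes 7 of 28 were higher, with Dntt higher by 2.99 and 2.61, Satb1 by 2.12 and 2.10 and Il7r by 1.70 and 1.93. Phagocyte genes gave 5 of 21, with Cd53 higher by 2.49 and 2.40 and Cybb by 1.99 and 2.06, and Ctss, the protease cathepsin S, was higher by 2.66 and 2.67. Of 20 megakaryocyte genes 4 were lower, with Pf4 at 11.27 ± 0.06 (SD, n = 3) in MPP2 and 7.66 ± 0.99 (n = 3) in MPP3, changes of -3.62 and -3.05. Aldh1a1 was lower by -1.51 and -1.31 and the gate gene Slamf1 by -1.23 and -1.28. Mecom differed by -0.30 and -0.01 (adjusted p = 0.68 and 0.98) and Abcg3 by -0.07 and 0.14 (adjusted p = 0.98 and 0.86).

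Against MPP4, 56 genes passed (0.281 percent), 25 higher in MPP3 (0.125 percent) and 31 lower (0.155 percent), with the within-set change that of MPP3 3 against MPP4 4 and 5. The lymphoid genes Dntt (-2.11 and -1.82), Satb1 (-1.09 and -1.38) and the gate gene Flt3 (-1.55 and -2.03) were lower in MPP3, 3 of the 28 lymphoid priming genes. Immunoglobulin genes were higher, with Jchain by 6.46 and 6.32, Igha by 3.93 and 3.38 and Ighm by 1.79 and 1.52. Cybb (1.94 and 1.74), Pou2af1 (2.36 and 1.57) and Thy1 (1.55 and 1.90) were also higher. None of the 21 primary granule genes passed against MPP4. Mpo stood 1.34 and 0.72 above MPP4, with an adjusted p of 0.46 within the set, and Ctsg 1.56 and 0.84 (adjusted p = 0.48).

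Across the 9 populations, on the common scale and without a term for the set, the level of Mpo was 6.69 ± 0.18 in LT-HSC, 8.15 ± 0.63 in ST-HSC, 10.41 ± 0.53 in MPP2, 11.13 ± 0.53 in MPP4, 12.48 ± 0.23 in MPP3, 12.69 ± 0.07 in CMP, 12.76 ± 0.17 in PreGr, 13.19 ± 0.09 in GMP and 10.98 ± 0.73 in Gr (SD, with n of 4, 3, 3, 5, 3, 3, 3, 4 and 3). MPP3 and CMP, neighbours in this order, differed by less than the SD of MPP3. Dntt had another order, with 5.60 ± 0.24 in LT-HSC, 6.13 ± 0.24 in MPP2, 9.12 ± 0.69 in MPP3, 9.31 ± 0.23 in CMP and 11.23 ± 0.45 in MPP4. Igha stood at 10.96 ± 0.48 in MPP3, at means of 6.39 to 7.38 in the other stem and progenitor populations, and was again higher in most samples of pre-granulocytes (PreGr) and granulocytes (Gr), sorted by Mac1 and Gr1, at 8.75, 9.35 and 7.01 on the PreGr arrays and 9.22, 8.58 and 9.08 on the Gr arrays. Jchain stood at 11.23 ± 0.35 in MPP3, at 9.62, 10.61 and 9.18 in PreGr and at 9.92, 9.36 and 7.07 in Gr. The MPP2 arrays stood at 5.70, 11.19 and 6.72, and the means of the other populations at 4.64 to 5.05. High levels of both genes were thus not confined to MPP3. Pou2af1 was at 9.51 ± 0.07 in MPP3, 8.70 ± 0.58 in MPP2, 8.58 ± 0.06 in PreGr and 8.92 ± 0.22 in Gr, and Mzb1 at 7.42, 8.45 and 7.22 on the MPP2 arrays, highest on the array with high Jchain. Cybb, at 7.88 ± 0.18 in MPP3, had its highest means in Gr (13.02 ± 0.13), PreGr (12.80 ± 0.12) and GMP (10.05 ± 0.17), and stood at 5.65 to 6.33 in the remaining populations.

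**Figure D5:**
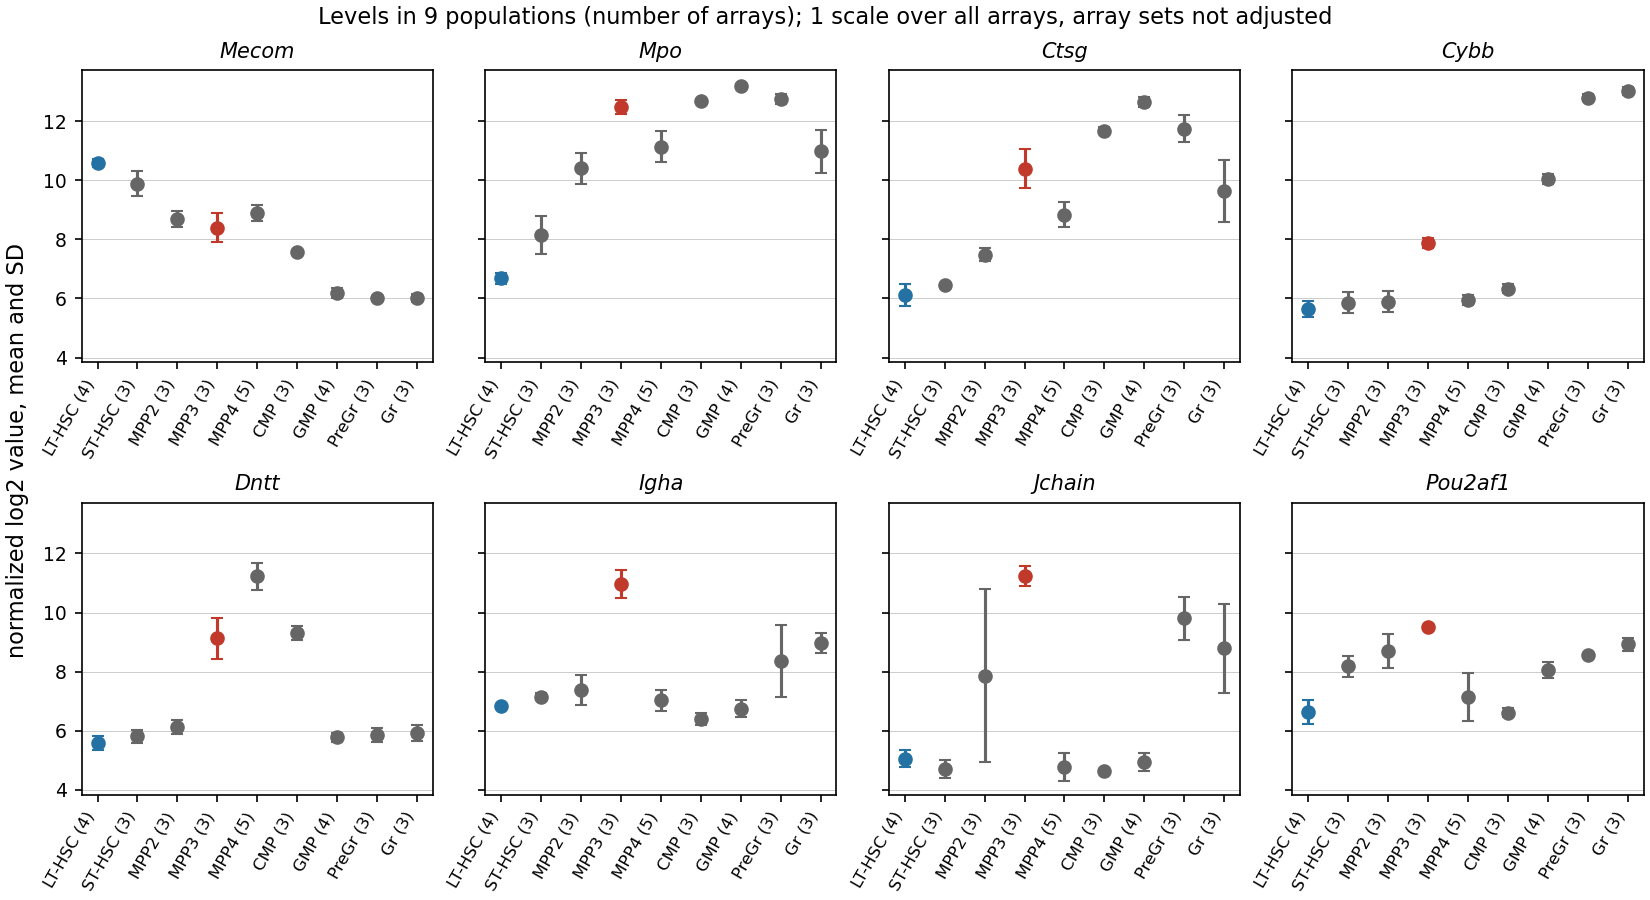
Mean and SD of the normalized log2 value of 8 genes in 9 populations, with the number of arrays in brackets and array sets not adjusted. Mecom is highest in LT-HSC at 10.59, Mpo rises through MPP2, MPP4 and MPP3 to 13.19 in GMP, and Igha and Jchain are highest in MPP3, at 10.96 and 11.23, followed by PreGr and Gr; the wide bar of Jchain in MPP2 comes from 1 of its 3 arrays.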

How the data were processed

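RNA of sorted bone marrow populations was measured on 31 mouse whole-transcript arrays. Per the labels' protocols, RNA was isolated with DNase treatment and amplified, and per the submitters' processing notes the authors summarised probes by RMA, with no version given. The deposited values are log2 intensities between 1.39 and 14.29, and the steps before them are not given in the sources used here.

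Of 35557 probes, 21789 had 1 gene symbol, 1621 several and 12147 none, and 21698 of the first matched RefSeq. The brightest probe stood for each of 999 genes with more than 1, which left 19938 genes. The 5 array sets were found from identical deposited values. Values were quantile-normalized over all arrays and fitted with limma 3.58.1 in R 4.3.3, with and without the set as a block, over all populations, and p-values were adjusted by Benjamini-Hochberg over all genes. Scripts were tested on simulated data. Figures used Python 3.11.15 and matplotlib 3.10.9.

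The members and the 29 gene lists were chosen with earlier results of these data known. Named genes were list members that were called or have a described role, the sort markers, and up to 15 rises and 15 falls outside the lists, taken by the smaller of the 2 absolute changes among genes without overlap, passing over predicted and unnamed genes. Same-numbered LT-HSC and MPP3 arrays had residual correlations of 0.215, 0.153 and -0.142. These residuals did not account for the set, so they cannot decide whether the numbers pair these samples. The calls used no pairing. Xist stood at 11.39 on LT-HSC 2 and at 5.56 on MPP3 2. In LT-HSC, MPP4, CMP, GMP, PreGr and Gr, which share the estimate of spread, Xist followed the numbers 1 to 3 (5.10 to 6.03, 9.72 to 11.41 and 8.25 to 10.24), and a block for those arrays was tried. Alternatives covered scaling, sets, probes, filters, weights, thresholds and single arrays.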

Additional observations from a re-analysis of the deposited data

Results flagged for a closer look

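In the 4 LT-HSC arrays, LT-HSC 4 lay far from the other 3 for 12 of the 132 genes named and for 5 of the 29 list means, by a gap test that flags about 1 in 20 groups by chance. Genes and lists share arrays and are not independent. Genes that were lower on LT-HSC 4 than on the others were Aldh1a1 (9.37 against 10.45 to 10.52), Rarb (7.20 against 8.64 to 8.84), Dlg2 (8.37 against 8.87 to 8.95), Cdkn1c (7.27 against 8.96 to 9.26) and Ndn (7.55 against 8.60 to 8.75). Genes that were higher were Mki67 (10.48 against 8.71 to 8.78), Tnfaip8l2 (9.28 against 8.34 to 8.44), Adgrg3 (8.60 against 7.69 to 7.84), Slc4a1 (7.44 against 7.12 to 7.16), Bin1 (7.53 against 7.29 to 7.31), Plxdc2 (10.56 against 10.15 to 10.21) and Plag1 (9.30, with the others from 8.97 upward).

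Among the list means, LT-HSC 4 was lower for stem cell surface and adhesion genes (8.66 against 9.11 to 9.17), for retinoid, aldehyde and transporter genes (7.99 against 8.58 to 8.68) and for G1 cyclins and kinases (8.71 against 8.80 to 8.81). It was higher for lymphoid priming genes (7.98 against 7.75 to 7.76) and for chemokine receptors and integrins (7.89 against 7.77 to 7.78). Sdc1 was lower on LT-HSC 1 (6.90 against 7.18 to 7.21), the single such value of another array. LT-HSC 4 is the one stem cell array of set 2, so the array and its set cannot be told apart.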

How the results depend on the processing

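The counts of genes called were 803 (MPP3 against LT-HSC), 132 (against MPP2) and 56 (against MPP4). Against LT-HSC the count was 1785 with the set as a random block, 1327 in the fit with sets alone, 5488 in the fit without sets alone, 1269 with array weights, 186 at an adjusted p under 0.01 and 167 with a log2 change of 1 or more in both fits. Against MPP2 these gave 266, 211, 192, 158, 57 and 61, and against MPP4 107, 231, 312, 64, 17 and 21. Median-centred arrays gave 55 against MPP2 and 29 against MPP4, deposited values 26 against MPP2, fits of only the 2 populations 5 and 17, and all probes 95 against MPP4. Leaving out single arrays gave 637 to 935 against LT-HSC, 34 to 326 against MPP2 and 45 to 74 against MPP4. Both fits cannot be made without LT-HSC 4 or MPP3 3. In alternatives chosen after seeing the data, the fit without sets called 7618 genes without LT-HSC 4, 4187 without MPP3 3 and 6293 for MPP3 1 and 2 against LT-HSC 1 to 3. The replicate number as a block in that fit gave 7643, 272 and 1764, and in both fits 144 against MPP2; with the set it could not be fitted for the other comparisons. A replicate block for arrays 1 to 3 of sets 1, 4 and 5 alone, chosen after seeing the data, gave 699, 106 and 45, and ended the calls of Adgrg3, Cebpe, Cst7, Icam4, Lgals1, Procr, Slc4a1 and Sult1a1. Gata2, at 0.08 within the set, turned to -0.45 in the fit without sets without LT-HSC 4, -0.43 without MPP3 3, -0.53 without both and -0.35 with the replicate block, and Lyz1, at -1.13, turned to 0.51 without both. The causes were not tested. Within the set each group has 1 array, whose spread is taken from all populations, and no depth is known for arrays.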

Other observations

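Genes of microRNAs were counted as a further group, chosen after its values were seen. Of 297 measured, 16 rose in MPP3 against LT-HSC and none fell in both fits, beside 2.27 and 1.76 percent of all genes. MPP3 3, whose level gives the within-set change, was the highest MPP3 array for all 16, as for Mir328 at 8.85, 8.83 and 9.96. The change of Mir181d was 1.00 over all arrays and 1.09 within the set. Its arrays overlapped, with LT-HSC 4 at 9.87 above MPP3 1 and 2 at 9.31 and 9.50. The arrays of Mir3107, Mir338, Mir483, Mir667 and Mir92b overlapped too. The probes read the host transcript or hairpin and not the mature microRNA.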
